A study of Mus musculus with 6 samples.

Results

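Sertoli cells are the supporting cells of the fetal testis: they enclose the germ cells in cords, secrete hormones and signals, and owe their identity to SRY and its target SOX9, an HMG-box transcription factor. The best known readouts of the cell are Amh, Dhh and Sox9 itself. The 9 genes described here, Aard, Mro, Tesc, Mmd2, Vnn1, Etd, Tmem184a, Clu and Shbg, have been linked to Sertoli cells or to the embryonic testis too but are less studied. Arrays of whole gonads do not show which cells express a gene, so that link is background knowledge and was not checked here. The genes were picked by name, with results of these arrays in view, out of 19937 genes measured. Each had 1 probe set annotated to it alone. Since the comparison of the Sox9 mutant with wild type took part in the choice, the differences of the 9 genes are given as a description, with no test.

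The arrays measured gonads of mouse embryos at E13.5 (days of embryonic development), dissected free of the mesonephros and frozen, on a mixed background of C57BL6/J and 129. Sox9 mutant gonads, of genotype Sox9flox/flox; Sf1:creTr/+, were hybridised on 3 arrays (numbers 3, 4 and 6), each from a pool of 12 gonads, and wild-type gonads on 3 arrays (numbers 1, 2 and 5), each from a pool of 6. In the mutant, a Cre recombinase under regulatory sequence of Sf1 (Nr5a1), which is active in the somatic cells of the gonad, acts on both floxed alleles of Sox9. No group carried the Cre or the floxed alleles alone, so an effect of either, or of pool size, cannot be told apart from that of losing Sox9. Litters are not given for the pools, and p-values therefore measure the spread between arrays alone, part of which may be technical.

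Values are deposited log2 RMA values. The background mark was set at 6.67 log2, below which 95% of the means of 1208 probe sets for olfactory and vomeronasal receptors lay, since such receptors are typical of the nose and not of the gonad. Array medians lay between 7.17 and 7.24 log2, and arrays correlated at 0.984 to 0.992 within groups and at 0.969 to 0.985 between groups. Sox9 measured 7.52, 7.78 and 7.60 log2 on mutants 3, 4 and 6, against 8.82, 8.81 and 9.20 on wild types 1, 2 and 5. Sox9 expression fell by 1.31 log2 with an SE of 0.14 (limma adjusted p = 0.00124), and the mutant level stayed above the background mark. Whether the Sox9 probe set reads the floxed sequence could not be checked, so the remaining level is no measure of the deletion. On wild type 5, 13 of 14 measured liver genes were higher than on both other wild-type arrays. Xist, the RNA of the inactive X chromosome, measured 7.29 log2 on mutant 3, 5.0 on mutant 4 and 4.97 on mutant 6, against 5.34 to 5.48 in wild type. The Y-linked Eif2s3y measured 9.59, 9.73 and 9.65 log2 on mutants 3, 4 and 6, against 9.56 to 9.77 in wild type. Kdm5d, also Y-linked, measured 7.98, 7.98 and 8.46, against 8.16 to 8.41 in wild type. The Y-linked Uty measured 8.02, 8.36 and 8.85, against 8.33 to 8.51 in wild type, so its lowest array was mutant 3. The labels name no batch and no embryo sex, and the part of either array's excess in the results was not tested. Results are therefore also given without these arrays.

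Promoter windows from RefSeq (GRCm38.p6), 250 bases before to 50 after an annotated start, were on hand for 5 of the 9 genes, in 6 windows. Bases upstream of the gene's annotated span are shown for the 3 genes where over 100 such bases lie in the window. They set Tesc, lower in the mutant, beside Etd, which was below the background mark in both groups, and beside Shbg, which had the single motif match. Sequences run 5′ to 3′ on the gene's strand, and capitals mark the match to AGATAA, the GATA motif searched.
Tesc (chr5:118027493-118027742, plus strand): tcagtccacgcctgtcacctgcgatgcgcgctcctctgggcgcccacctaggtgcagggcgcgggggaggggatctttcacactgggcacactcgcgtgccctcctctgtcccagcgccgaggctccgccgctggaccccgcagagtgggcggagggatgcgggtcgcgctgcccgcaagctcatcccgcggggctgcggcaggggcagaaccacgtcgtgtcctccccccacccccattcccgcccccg
Etd (chrX:53434668-53434917, plus strand): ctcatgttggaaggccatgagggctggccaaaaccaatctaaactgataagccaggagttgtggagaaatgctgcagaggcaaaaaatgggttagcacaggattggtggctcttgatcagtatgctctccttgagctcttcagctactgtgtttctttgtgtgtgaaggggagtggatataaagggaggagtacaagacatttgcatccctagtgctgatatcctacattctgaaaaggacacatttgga
Shbg (chr11:69618027-69618155, minus strand): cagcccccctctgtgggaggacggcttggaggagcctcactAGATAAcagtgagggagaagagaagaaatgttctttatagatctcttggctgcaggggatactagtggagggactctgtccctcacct
The windows differed in composition. that of Tesc had 74.7% G and C and 36 CpG dinucleotides in its 300 bases, more than 93.8% of all windows, while that of Etd had 46.0% G and C and 0 CpG. The median of all 32851 windows was 52.7% G and C and 7 CpG. Of the other windows, Mmd2 had 18 CpG, the pair of Tmem184a starts 5 and 6, and Shbg 4.

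Searched on both strands over the 300 bases, the SOX core ACAAT was in none of the 6 windows, against 31.0% of all windows, and neither was AACAAT (10.7% of all windows), which contains that core. The NR5A1 motif AAGGTCA was also in none, against 4.72%. AGATAA was in 1, that of Shbg, starting 209 bases before the start that the window was built on, against 11.2% of all windows. That start lies inside the annotated span of Shbg, so the 129 bases shown end before it. A match is a description of letters, and the lack of one says only that these letters are not in this window.

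In all, 8 of the 9 genes were lower on all 3 mutant arrays than on any wild-type array. Of all 19937 genes, 16.6% had this pattern. The contrast took part in the choice of the genes, so nothing is read from that count. The median difference of the 9 was -1.43 log2, against 0.004 over all genes. In whole gonads, fewer cells of a type and less RNA per cell cannot be told apart. Without wild type 5 the median of the 9 was -1.46 log2, and without mutant 3 it was -1.34. The order of the differences, from the largest, was Aard, Tmem184a, Vnn1, Mmd2, Clu, Mro, Tesc, Shbg and Etd.

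**Figure D1:**
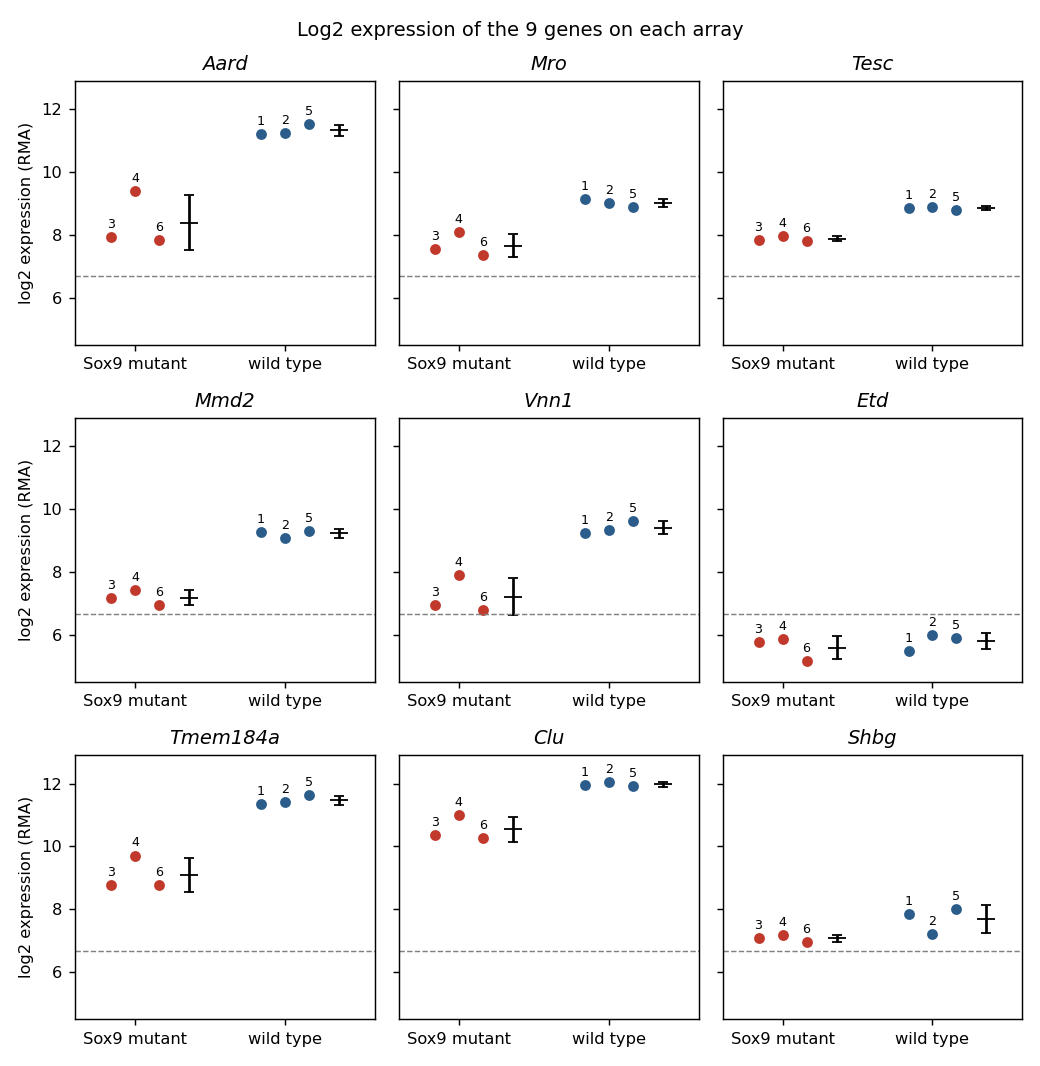
Log2 expression of each gene by array, with Sox9 mutant arrays (3, 4, 6) on the left and wild-type arrays (1, 2, 5) on the right of each panel; numbers are array numbers, bars are mean ± SD (n = 3), and the dashed line is the background mark of 6.67 log2. In 8 panels all mutant points lie below all wild-type points, by as little as 0.01 log2 for Shbg, and Etd lies below the mark on all 6 arrays.

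Aard, Mro, Tesc and Etd are described first. Aard encodes an alanine and arginine rich protein of unknown function. It measured 7.94, 9.39 and 7.82 log2 on mutants 3, 4 and 6, against 11.21, 11.25 and 11.53 on wild types 1, 2 and 5. Mutant 4 stood well above the other mutant arrays, and yet its value was 1.82 log2 below the lowest wild-type value. The means were 8.38 ± 0.87 in the mutant and 11.33 ± 0.18 in wild type (SD, n = 3 each), a difference of -2.94 ± 0.35 log2 (SE), or 7.70-fold lower. This was the largest difference of the 9, and Aard also had the widest spread between mutant arrays, 1.56 log2.

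Mro, or maestro, encodes a protein with HEAT-like repeats. It measured 7.55, 8.08 and 7.34 log2 in the mutant, against 9.13, 9.01 and 8.89 in wild type. The groups were 0.81 log2 apart at their closest values. Its difference was -1.35 ± 0.18 log2 (SE), 2.55-fold lower. Tesc encodes tescalcin, a calcium-binding EF-hand protein that interacts with a sodium/proton exchanger. Its values were 7.84, 7.96 and 7.82 log2 in the mutant, against 8.85, 8.90 and 8.79 in wild type. These were the tightest groups among the 9, with ranges of 0.14 log2 in the mutant and 0.11 in wild type. The difference, -0.97 ± 0.11 log2 (SE), was 1.96-fold lower and about the same on every mutant array.

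Etd, for embryonic testis differentiation, is an X-linked gene. It measured 5.75, 5.87 and 5.16 log2 in the mutant, against 5.49, 5.98 and 5.91 in wild type. The groups overlapped, and each of the 6 values lay below the background mark, so no level of Etd was distinguished from background in either group. Its difference of -0.20 ± 0.20 log2 (SE) changed sign when mutant 6 was left out (0.02 log2) and among numbers 1 to 4 alone (0.07 log2). These values give no information on Etd as a Sertoli cell gene.

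The next genes encode proteins of membranes. Mmd2 encodes a multi-span membrane protein of the progestin and adipoQ receptor family. It measured 7.18, 7.42 and 6.94 log2 on mutants 3, 4 and 6, against 9.29, 9.07 and 9.32 on wild types 1, 2 and 5. All 3 mutant values lay just above the background mark, and the groups were 1.66 log2 apart at their closest. The difference was -2.05 ± 0.15 log2 (SE), 4.14-fold lower.

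Vnn1 encodes vanin 1, a membrane-anchored pantetheinase that releases cysteamine and pantothenate. It measured 6.94, 7.89 and 6.80 log2 in the mutant, against 9.26, 9.35 and 9.63 in wild type. Mutants 3 and 6 were close to the background mark and mutant 4 was higher. The difference was -2.20 ± 0.26 log2 (SE), 4.60-fold lower. Tmem184a, also called Sdmg1, encodes a membrane protein linked to vesicle trafficking in Sertoli cells. It measured 8.78, 9.71 and 8.77 log2 in the mutant, against 11.36, 11.41 and 11.64 in wild type. Here too mutant 4 alone stood apart, and the groups were 1.65 log2 apart at their closest. The difference was -2.38 ± 0.24 log2 (SE), 5.22-fold lower. Vnn1 and Tmem184a resembled each other across the 6 arrays.

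Clu and Shbg encode secreted proteins. Clu encodes clusterin, an extracellular chaperone and a major secreted glycoprotein of Sertoli cells in the adult. It measured 10.36, 10.99 and 10.28 log2 in the mutant, against 11.96, 12.06 and 11.91 in wild type. The difference was -1.43 ± 0.18 log2 (SE), 2.69-fold lower, and the lowest mutant value was well above the background mark. Shbg encodes the sex hormone-binding globulin, known in the testis as androgen-binding protein and made in the fetal liver as well. It measured 7.08, 7.18 and 6.96 log2 in the mutant, against 7.85, 7.19 and 8.02 in wild type. Wild type 2 and mutant 4 differed by only 0.01 log2, so the lack of overlap of Shbg rests on a gap far smaller than the spread within wild type (SD 0.43 log2). The difference was -0.61 ± 0.20 log2 (SE), 1.53-fold lower. It was -0.45 without wild type 5, -0.39 among numbers 1 to 4 alone and -1.05 between mutant 6 and wild type 5.

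On the linear scale, the level that remained on each mutant array was expressed as a percentage of the wild-type mean, taken as the mean of log2 values. RMA compresses values near background, so these percentages overstate what remains of a dim gene. Aard kept 9.55%, 26.0% and 8.83% on mutants 3, 4 and 6. Tmem184a kept 15.5%, 29.5% and 15.4%, and Vnn1 18.1%, 34.8% and 16.4%. The level on mutant 4 was 2.73 times that on mutant 3 for Aard, 1.90 times for Tmem184a and 1.93 times for Vnn1.

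Mmd2 kept 24.1%, 28.6% and 20.5%, Clu 32.8%, 50.7% and 30.8%, and Mro 36.5%, 52.4% and 31.5% on mutants 3, 4 and 6. Tesc kept 49.9%, 54.0% and 48.9%, and Shbg 65.6%, 70.5% and 60.7%. The values of Etd, 97.3%, 105% and 64.4%, come from levels below the background mark. Over the 9 genes the median of the mean residual level was 38.1%. As a share of the log2 span between the wild-type mean and the receptor median of 4.90 log2, the median was 67.1%, since that measure stays on the log scale.

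**Figure D2:**
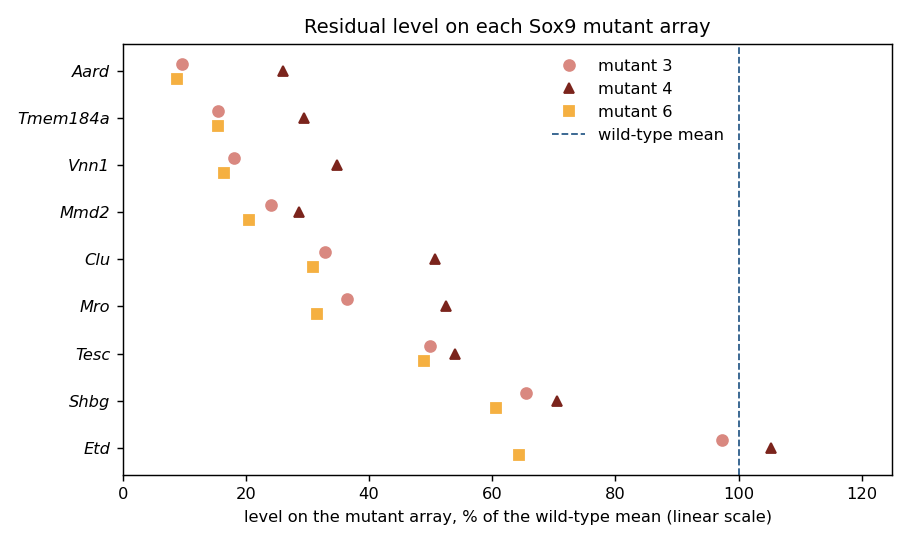
Level of each gene on Sox9 mutant arrays 3, 4 and 6 as a percentage of the wild-type mean (dashed line, 100%), on a linear axis, with genes ordered by their mean. Mutant 4 (triangles) lies to the right of mutants 3 and 6 for every gene, from 26.0% for Aard to 105% for Etd.

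The mutant arrays kept the same order for each of the 9 genes: mutant 4 highest, mutant 3 next and mutant 6 lowest. Etd is among them, with values below the background mark. Of 850 other genes called lower, 29.2% had that order and 65.8% had mutant 4 highest. Of 29 measured other Sertoli genes, 34.5% had the order and 75.9% had mutant 4 highest. Mutant 4 was also highest for all 10 measured Leydig genes, 5 of which had the full order. Over all genes 19.1% had the order and 33.0% had mutant 4 highest. Some of the gaps between mutants 3 and 6 were small, 0.0078 log2 for Tmem184a and 0.03 for Tesc, and 1 array has no replicate. The excess of mutant 4 over the mean of mutants 3 and 6 was 1.50 log2 for Aard, 1.02 for Vnn1, 0.93 for Tmem184a, 0.67 for Clu and 0.63 for Mro. It was 0.41 for Etd, 0.36 for Mmd2, 0.16 for Shbg and 0.13 for Tesc.

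Across the 9 genes this excess was larger where the difference from wild type was larger (Pearson r = -0.82, Spearman rho = -0.78, n = 9 genes). The points share the same 6 arrays, and mutant 4 enters both axes, so this is a description only. Large excesses at large differences were also seen outside the 9, at 3.01 log2 for Amh (difference -4.33) and 3.79 for Cyp17a1 (-4.29). The excess was 0.57 for Inha (-2.25) and 0.47 for Sox8 (-1.02). Among the 9, Mmd2 departed from the trend. Its difference was close to that of Vnn1, but its excess on mutant 4 was 0.36 log2, against 1.02 for Vnn1. Without mutant 4 the differences were -3.45 log2 for Aard, -2.69 for Tmem184a and -2.54 for Vnn1.

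**Figure D3:**
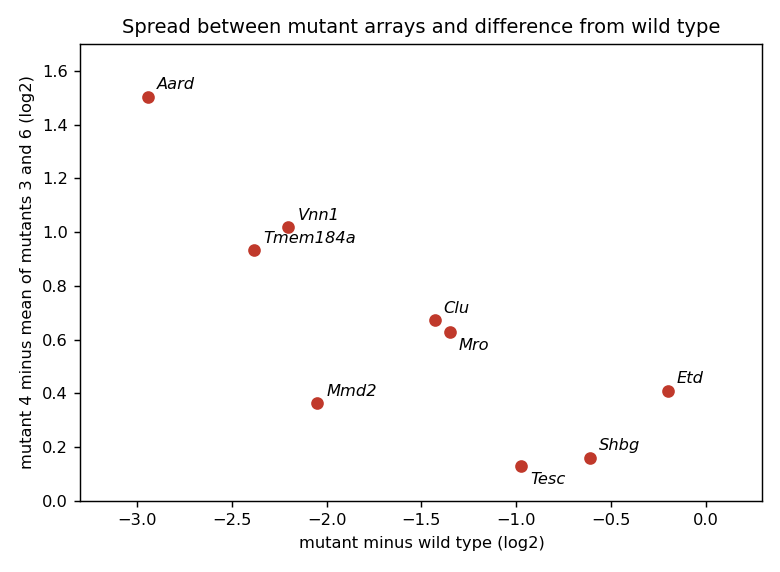
Excess of mutant 4 over the mean of mutants 3 and 6 (log2) against the difference of the mutant from wild type (log2), 1 point per gene. Aard lies at the upper left, with an excess of 1.50 at a difference of -2.94, and Tesc and Shbg at the lower right, while Mmd2 lies below the other genes of its difference.

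Markers of Leydig and pregranulosa cells also differed between the mutant arrays. The summed linear level of 10 Leydig genes was 3946, 8075 and 4358 on mutants 3, 4 and 6, against 22033 to 23223 in wild type, so it too was highest on mutant 4 within the mutant. That of 13 pregranulosa genes (from the ovarian counterpart of Sertoli cells) was 9970, 8978 and 11173 on mutants 3, 4 and 6, against 3141 to 3617 in wild type, lowest on mutant 4 within the mutant. The single genes did not all have this order. Fst, Wnt4, Bmp2, Runx1, Irx3, Lhx9 and Kitl were lowest on mutant 4, and Rspo1, Nr0b1, Lgr5 and Msx1 were not. Foxl2 (8.37, 8.45 and 8.24 log2 on mutants 3, 4 and 6) and Irx5 (6.81, 7.23 and 6.74) were highest on mutant 4. No gene of either list had both group means below the background mark. On mutants 3, 4 and 6 the sums were 2992, 3437 and 3537 for endothelial genes and 10305, 10019 and 9469 for germ cell genes. They were 1741, 1635 and 1961 for mesonephros and kidney genes, and 924, 871 and 859 for macrophage and monocyte genes, 5 of which had both means below the mark. Within the mutant, the sum on mutant 4 was highest in none of these further lists, and lowest only in the mesonephros list. That list includes Emx2, which rose by 1.61 log2 (limma adjusted p = 0.00252) and measured 9.19, 8.95 and 9.83 on mutants 3, 4 and 6. Bright genes weigh most in a sum. In the mesonephros list Emx2, Pax8 and Gata3 were lowest on mutant 4, Lhx1, Pax2 and Wnt11 highest, and Cdh16 and Wnt9b in between. The part of the cells of these lists in the values of the 9 genes was not tested.

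Liver genes were high on wild type 5, and Shbg, Clu and Vnn1 are also made in liver. The summed level of 14 liver genes was 1362 to 1505 in the mutant and 1387, 1492 and 9455 on wild types 1, 2 and 5. The largest excesses of wild type 5 over the mean of wild types 1 and 2 were those of Afp (5.55 log2), Alb (5.42), Apoa1 (2.81) and Itih2 (2.63). For the 9 genes this excess was 0.50 log2 for Shbg, 0.33 for Vnn1, 0.30 for Aard and 0.25 for Tmem184a. It was -0.10 for Clu, which was thus lower on wild type 5, and between -0.18 (Mro) and 0.17 (Etd) for the others. Without wild type 5 the difference was -2.09 log2 for Vnn1 and -1.46 for Clu, against -2.20 and -1.43 with it.

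**Figure D4:**
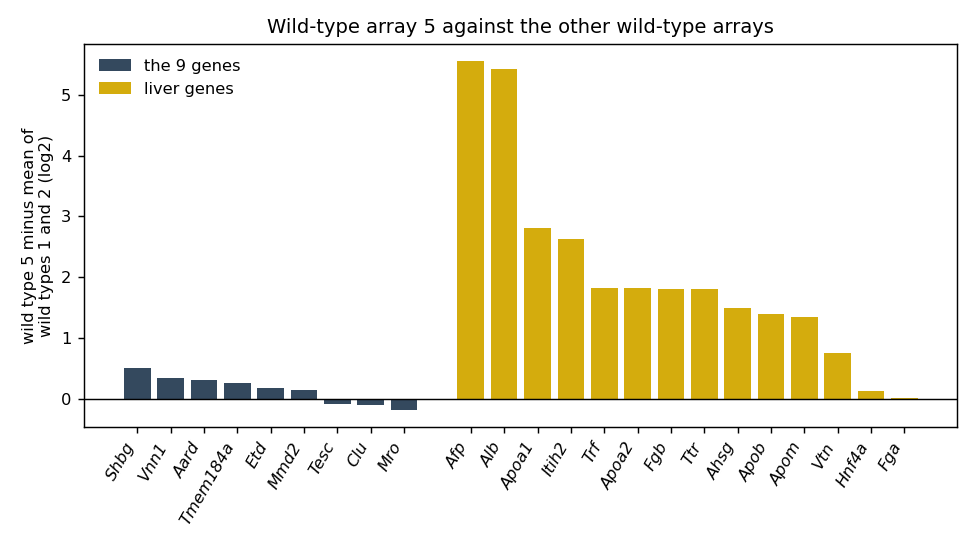
Wild type 5 minus the mean of wild types 1 and 2 (log2), for the 9 genes (dark bars) and 14 liver genes (yellow bars). The bars of the 9 genes run from -0.18 (Mro) to 0.50 (Shbg), and those of the liver genes from 0.01 (Fga) to 5.55 (Afp).

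Other Sertoli genes, none of them among the 9, were tested in the same fit. Of 29 measured, 17 fell, 2 rose and 10 did not pass (limma adjusted p under the threshold), with a median difference of -0.92 log2. The 17 include Sox9, the targeted gene, and without it 16 of 28 fell. They also include Serpina5, which lay below the background mark on all 6 arrays, and Abcb4, which did not pass, also had both group means below it. Of all genes, 4.30% were called lower and 2.64% higher. The largest measured decreases were in Amh, the anti-Müllerian hormone of the male embryo, which fell by 4.33 log2, in Cst9, a cystatin (fell by 4.14), in Hsd17b3, which makes testosterone (fell by 3.51), and in Defb19, a beta-defensin (fell by 2.68). Their limma adjusted p-values were 0.00654, 0.00221, 0.00495 and 0.000834. The calls of Amh and Hsd17b3 ended with eBayes with trend and robust (adjusted p = 0.0802 and 0.0518). On mutants 3 and 6 each of these 4 genes was under the background mark, so the falls may be understated and their order is not settled. The difference of Vnn1 was close to that of the inhibin subunit Inha (-2.25 log2), and that of Tesc was close to that of Sox8 (-1.02).

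The 10 that did not pass had differences of -0.53 (Fgf9), -0.48 (Sox10), -0.36 (Cldn11), -0.34 (Defb36 and Adamts16), -0.23 (Dmrt1), -0.11 (Mansc4 and Rhox8), 0.13 (Gata4) and 0.15 log2 (Abcb4). With numbers 5 and 6 as a batch term Fgf9 and Sox10 passed as lower (limma adjusted p = 0.0195 and 0.0407), and among probe sets above the background mark Fgf9 and Cldn11 did (0.0418 and 0.0491). Wt1 and Nr0b1, transcription factors that pregranulosa cells express too, rose by 0.57 and 1.04 log2 (limma adjusted p = 0.0239 and 0.0339). Each call was lost under several alternatives, with adjusted p up to 0.190 and 0.141. All 10 measured Leydig genes fell, with a median of -2.21 log2. Cyp11a1, which starts steroid synthesis, fell by 4.70, Cyp17a1 fell by 4.29 and the cholesterol carrier Star fell by 3.34. Cyp11a1 lay below the background mark on mutants 3 and 6, so its fall may be understated too. Of these, Cyp17a1 lost its call without wild type 1, 2 or 5 or mutant 3 (adjusted p up to 0.0827 among these), and Cyp11a1 and Cyp17a1 lost theirs with trend and robust (0.0969 and 0.150).

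**Figure D5:**
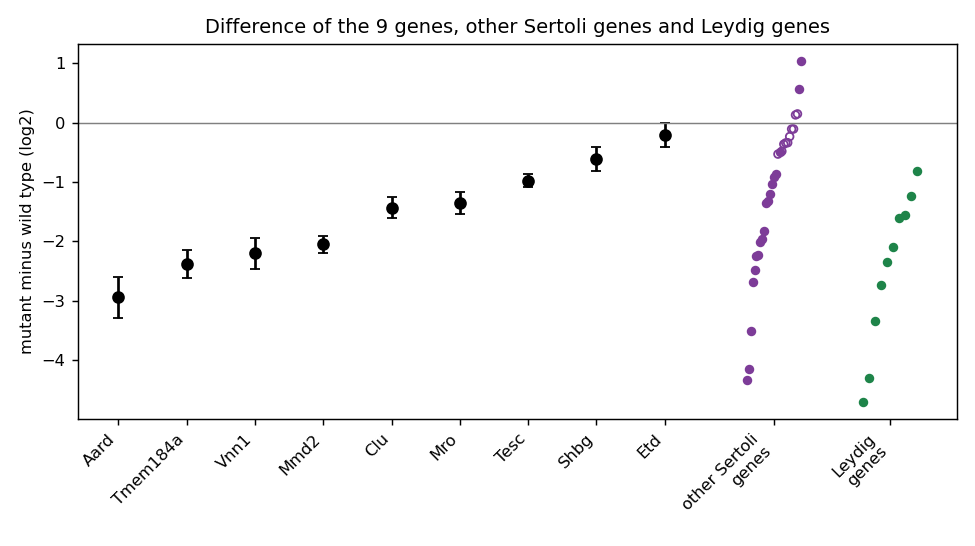
Difference of the Sox9 mutant from wild type (log2) for the 9 genes with their SE, and for 29 other Sertoli genes and 10 Leydig genes, 1 point per gene; filled points of the lists passed the limma threshold and open points did not. The 9 genes run from -2.94 (Aard) to -0.20 (Etd), within the range of the other Sertoli genes.

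Among themselves, the 9 genes were set side by side as log2 differences from their wild-type mean, with the root mean square distance over the 6 arrays as the measure of likeness. Mro and Clu were the closest pair (0.09 log2), followed by Vnn1 and Tmem184a (0.14). Aard and Etd were the farthest apart (1.98). The mean profile of the 9 was -1.70, -1.14 and -1.87 log2 on mutants 3, 4 and 6, and -0.04, -0.06 and 0.10 on wild types 1, 2 and 5.

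Of genes outside the 9, the nearest to that mean profile were Dtx4, a deltex ubiquitin ligase (0.06 log2), Scarb1, the receptor for high-density lipoprotein and a member of the Leydig list (0.07), and Mybpc3, a myosin-binding protein (0.08). Tent5c, a poly(A) polymerase (0.08), Thbd, or thrombomodulin (0.09), and Me1, malic enzyme (0.09), came next. For single genes, the nearest were Ephx1 and Defb19 to Aard (0.25 and 0.28 log2), Trim47 and Map3k21 to Mro (0.06 and 0.07), and Spry4 and Tm7sf2 to Tesc (0.03 and 0.05). Hao2 and Padi2 were nearest to Mmd2 (0.09 and 0.10), Pltp and Casq2 to Vnn1 (0.12 and 0.13), and Pltp and Hesx1 to Tmem184a (0.11 and 0.15). H2bc4 and Ppp1r16b were nearest to Clu (0.08 and 0.09), Phlda3 and Cnga1 to Shbg (0.10 and 0.11), and Atoh8 and Mal2 to Etd (0.10 and 0.12). Etd, Cnga1 and Mal2 lay below the background mark on all 6 arrays, so distances that involve them may reflect background alone. With 6 arrays in 2 groups, such a distance mostly reflects the size of the group difference. No gene outside the 9 came as close to Aard as the nearest did to each of the other 8.

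The genes that lie next to the 9 in the GRCm38.p6 gene table were not used to choose them. Of 11 such neighbours with a probe set of their own, 3 fell, against 4.30% of all genes called lower. Radil, next to Mmd2, measured 7.31, 7.21 and 6.99 log2 in the mutant, against 7.85, 7.78 and 7.68 in wild type, and fell by 0.60 ± 0.12 log2 (SE, limma adjusted p = 0.0239). Mafk, next to Tmem184a, measured 7.08, 7.41 and 7.54, against 7.85, 8.0 and 8.14, and fell by 0.65 ± 0.15 log2 (SE, limma adjusted p = 0.0333). Atp1b2, next to Shbg, measured 9.78 to 10.09 in the mutant, against 10.50 to 10.54 in wild type, and fell by 0.57 ± 0.12 log2 (SE, limma adjusted p = 0.0254).

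In each of these 3 the groups did not overlap. The differences of Radil and Mafk were smaller in size than those of Mmd2 (-2.05 log2) and Tmem184a (-2.38), while that of Atp1b2 was close to that of Shbg (-0.61). The calls were not stable: Radil lost its call without any 1 array but mutant 3, Mafk without any but mutant 6, and Atp1b2 without any but mutant 4, with adjusted p up to 0.108, 0.106 and 0.0946. The 8 other neighbours did not pass. Among them were Sat2 on the other side of Shbg (0.06 log2, limma adjusted p = 0.872) and Psmg3 next to Tmem184a (-0.17 log2, adjusted p = 0.500). Vnn3, a vanin gene next to Vnn1 (0.19 log2, adjusted p = 0.454), and Taar1 on the other side of Vnn1 lay below the background mark on all 6 arrays. Neither was distinguished from background, so their values give no information on a change. Gulo, next to Clu, measured 6.70 to 6.74 log2 in the mutant and 6.76, 6.76 and 7.79 on wild types 1, 2 and 5, high only on the array with high liver genes.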

How the data were processed

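RNA of pooled mouse fetal gonads was measured on 6 MoGene arrays, with 3 Sox9 mutant and 3 wild-type pools. The deposited log2 values are RMA output per the submitters' processing notes, that is, corrected for background, normalized between arrays by quantiles and summarized per probe set, and no source used here gives the RMA settings. Of 34760 rows, 6573 with identifiers below the lowest annotated one were left out as the control block. The remaining 28187 probe sets were fitted with limma (version 3.58.1, under R 4.3.3). Linear models with moderated variances left 4 residual degrees of freedom, and tests were 2-sided with Benjamini-Hochberg adjustment over all of them and a threshold of 0.05. The fit was first tested on simulated data. Probe sets with 1 gene were used (21640 of them), and the brightest by mean over 6 arrays stood for each of 19937 genes.

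The 9 genes, the marker lists, the tests and the alternatives were chosen with earlier results of these data known. Genes named are the 9; Sox9; of the other Sertoli genes the 4 largest called decreases and those that did not pass; the 3 largest Leydig decreases; the 4 liver genes highest on wild type 5; sex chromosome genes; the 6 genes nearest in profile and the 2 nearest to each gene. Wt1, Nr0b1, Serpina5, Inha, Sox8, Fga, the pregranulosa and mesonephros genes and the neighbours in the genome were named after their values were seen. Alternatives were other scalings, a filter on dim probe sets, trend and robust eBayes, array weights, numbers 5 and 6 as a batch, subsets of arrays, gene means and inclusion of the control rows. The number of arrays limits the precision.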

Additional observations from a re-analysis of the deposited data

How the results depend on the processing

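No paired analysis was possible because litters are not given for the pools, and the array numbers run on across both groups. Of 161 recomputed differences of the 9 genes, 44 could not move by construction (filter, trend and robust, batch term, gene means, all rows). Of the other 117, 108 moved by less than the spread between replicates, 7 by more and 2 changed sign. Both changes of sign were for Etd (0.074 log2 among numbers 1 to 4 alone and 0.017 without mutant 6, with -0.35 to 0.017 when 1 array was left out). Leaving out 1 array could not, by arithmetic, move a difference by more than that spread, so the 108 is no measure of stability. The 7 were Aard, Mmd2, Vnn1, Etd, Tmem184a and Shbg between mutant 6 and wild type 5 alone, and Tesc without wild type 5 and mutant 4 together. The number of the 9 genes without overlap was 8 to 9 with 1 array left out. Leaving out an array can only keep or add separation, so this count could not fall below 8. With 1 array left out the median difference of the 9 genes ran from -1.65 to -1.30 log2. The median residual level of 38.1% became 67.1% as a share of the log2 span. Counts of all genes moved most. With 1 array left out 330 to 746 genes were called lower and 262 to 546 higher. They were 513 lower among numbers 1 to 4 alone, 405 lower and 199 higher without wild type 5 and mutant 4 together, and 465 lower and 307 higher with all rows of the table. With numbers 5 and 6 as a batch term 820 were higher. Without wild type 5 and mutant 3 together, an alternative chosen after seeing the data, 239 were lower and 163 higher, with 12 other Sertoli genes and 7 Leydig genes lower. The other Sertoli count was otherwise 15 to 19, the Leydig count 8 to 10, and Sox9 passed in each alternative run. Mansc4, which did not pass, changed sign without wild type 1 (0.070 log2, with -0.22 to 0.070 when 1 array was left out). Etd was not measurable against background, and 3 arrays per group limit the precision. The causes of these changes were not tested.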
